A study of Mus musculus with 12 samples.

Results

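The genes described here are 9 genes that mark tuft cells, namely Dclk1, Trpm5, Pou2f3, Il25, Alox5, Gnat3, Avil, Il17rb and Sh2d6, out of the 38924 genes listed in the count tables. They were taken by name, after the Ensembl identifiers had been matched to mouse symbols, and all 9 were found and all 9 passed the filter on low counts that 20311 genes passed. RNA-Seq counts were available for the proximal colon of 12 mice of the C57BL/6 strain, all female by the study's methods and all 6 weeks old. In 6 of them the genotype was APC Min/+, a heterozygous nonsense mutation of the tumour suppressor gene Apc that leads to many intestinal adenomas later in life, and the other 6 were wild type (WT). The APC Min/+ mice are named M8_2, M10_2, M18_2b, M13_1, M2_A and M20_1, and the WT mice M17_2, M19_1, M16_1, M18_2a, M17_1 and M18_b. Neither group received any treatment. By the study's methods the mice came in several shipments and the genotypes were kept in separate cages, so that genotype and cage cannot be told apart, and the labels do not give the shipment. The labels call the tissue mucosa, whereas the methods describe a short section of the colon, and markers of smooth muscle were abundant in each mouse.

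Tuft cells are rare chemosensory cells of the gut epithelium. They sense luminal metabolites and parasites with the signalling machinery of taste cells, release cytokines, leukotrienes and acetylcholine, and through IL-25 start a type 2 immune response that in turn increases tuft and goblet cell numbers. Their formation depends on the transcription factor POU2F3. Some of their marker genes are also used elsewhere: Dclk1, Avil and Chat in neurons, Alox5 in myeloid cells and Il17rb in lymphocytes of the type 2 response. In bulk RNA of this kind, fewer tuft cells and less RNA per tuft cell cannot be told apart.

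The total count on genes lay between 50313805 and 197914821, with a median of 96605059 in APC Min/+ and 100161198 in WT mice. Of the counts from 1 to 20, between 75.7% and 81.2% were even in each mouse, where whole fragments counted once would give about as many odd as even numbers, so counts may not stand for independent molecules. Levels are given below as CPM, counts scaled to library size and by TMM factors, which lay between 0.906 and 1.10. Apc itself was at 192 ± 16.97 CPM in the APC Min/+ group and 186 ± 30.7 CPM in the WT group (SD, n = 6 each), and the counts pool the mutant and the normal allele. Libraries M10_2 and M13_1 stood apart from the rest, with summed CPM of the posterior genes Hoxa13, Hoxb13, Hoxd12 and Hoxd13 of 468 and 554 against 1.03 to 2.93 in the other 10 mice. M13_1 also held 47.1 CPM of B cell markers against at most 10.7 in any other mouse. The SD of a library's log2 deviation from the mean of all mice was 0.701 in M10_2, 0.696 in M13_1 and 0.653 in the WT mouse M17_1, and at most 0.452 in the other 9. Results found to rest on these mice are given with and without them.

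Between genotypes, all 9 tuft cell genes had a lower fitted level in APC Min/+ mice, but no difference passed the threshold. In edgeR's quasi-likelihood test 0 of 20311 genes (0%) reached an FDR under 0.05 with a 2-fold change, among them 0 of the 9 members. At an unadjusted p under 0.05 there were 1071 genes (5.27% of those tested) and 2 of the 9 members, Sh2d6 and Gnat3. DESeq2 called 27 genes and edgeR's likelihood ratio test 15, none of them a member, and limma-voom called 0 genes with 1034 at an unadjusted p under 0.05. The median log2 fold change of the members was -0.32, compared with -0.0077 over all genes tested, of which 51.6% were below 0. Without M10_2 and M13_1, 8 of the 9 were below 0, the median was -0.27 and 0 of 9 had an unadjusted p under 0.05, while 317 of all genes did. Without M17_1 as well, the count below 0 was again 8 of 9, and the median was -0.23.

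**Figure D1:**
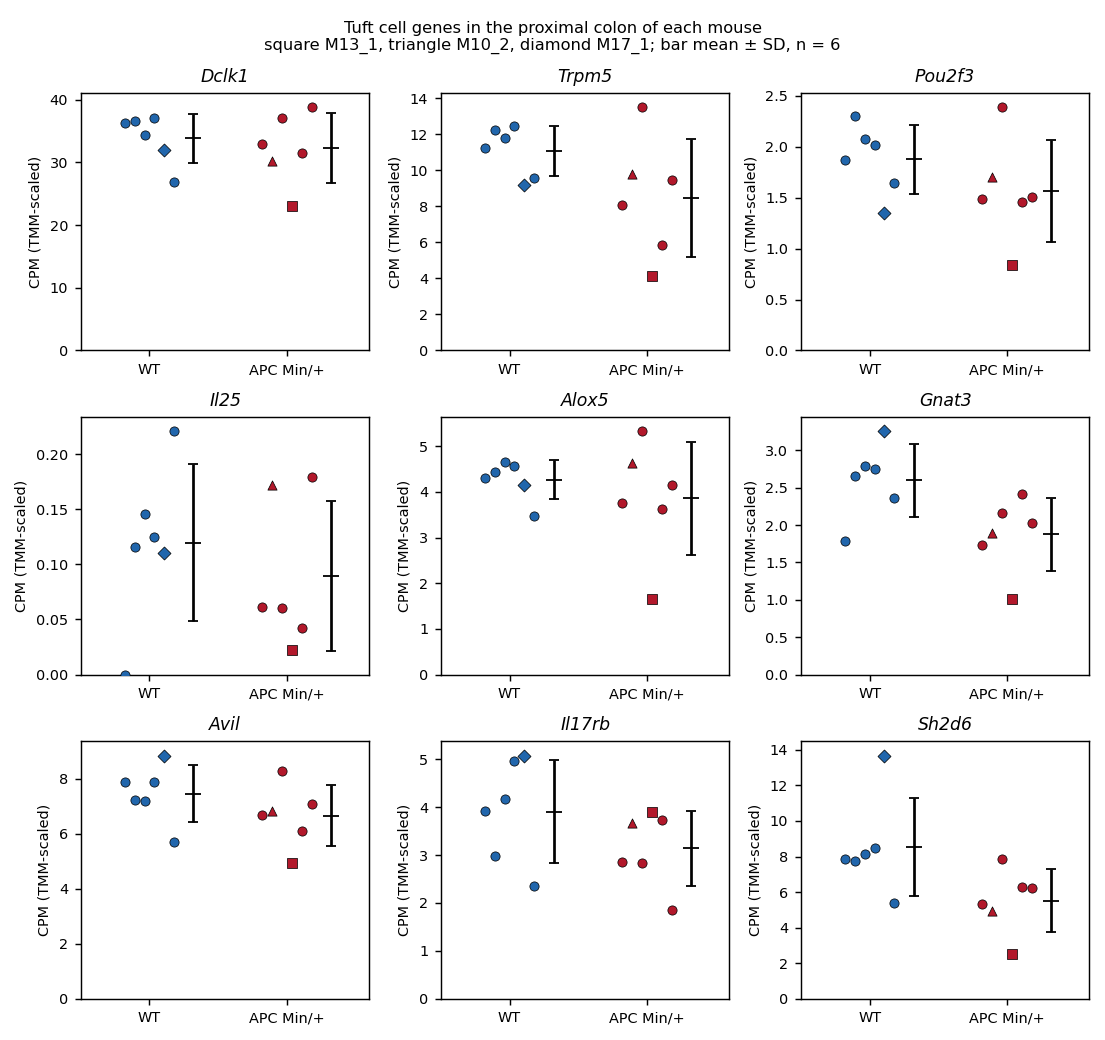
Level of each tuft cell gene in CPM (TMM-scaled) in each mouse, WT in blue and APC Min/+ in red, with the mean and SD of 6 mice as a bar beside the points. The ranges of the 2 genotypes overlap for all 9 genes, and M13_1 (square) is the lowest of the 12 mice for 7 of them.

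Pou2f3 (ENSMUSG00000032015.9, chr9:43123939-43210369, minus strand, coordinates from GENCODE M21 on GRCm38) encodes the POU domain factor on which the tuft lineage depends. It was at 0.839 CPM in the lowest, 1.50 in the median and 2.39 in the highest APC Min/+ mouse, and at 1.35, 1.94 and 2.297 CPM in the WT mice. The highest level of all 12 mice was thus in an APC Min/+ mouse, M18_2b, and the lowest in another, M13_1, so the range of one genotype enclosed the other. Its log2 fold change was -0.26 (standard error 0.22, edgeR unadjusted p = 0.26, FDR = 0.910), with 5 of 6 APC Min/+ mice below the WT median, and -0.13 without M10_2 and M13_1.

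The octamer ATGCAAAT is the classical DNA motif of POU factors of this class, and promoter windows were searched for it on both strands because several tuft cell genes moved with Pou2f3 across mice. The windows, from RefSeq on GRCm38.p6, reach from 250 bases before to 50 bases after a gene's start, and 7 of the 9 members have one; Pou2f3 and Il25 do not. The octamer was in none of these 7 and in 1.74% of all 32851 windows. Its first 7 letters, ATGCAAA, which also match wherever the full octamer does, were in 1 of the 7, Avil, and in 4.63% of all windows. Among the other tuft cell genes listed below, 5 of 37 with a window held the octamer (1810046K07Rik, Itpr3, Sucnr1, Hpgds and Kctd12). That count is by gene, whereas the share of 1.74% is by window, so they are not like for like. Some of the genes have more than 1 window, and another window of 1810046K07Rik held no match. Shown here are the window of Trpm5 (chr7:143094593-143094892, minus strand), the member closest to Pou2f3 across mice but without a match, that of Avil (chr10:127000459-127000758, plus strand) with matches starting at -115 and -15 from the gene's start, and that of 1810046K07Rik (chr9:51328869-51329168, minus strand), which encodes a coactivator of POU2F3 and has octamers at -86 and -55. Capitals mark the match on either strand.
Trpm5: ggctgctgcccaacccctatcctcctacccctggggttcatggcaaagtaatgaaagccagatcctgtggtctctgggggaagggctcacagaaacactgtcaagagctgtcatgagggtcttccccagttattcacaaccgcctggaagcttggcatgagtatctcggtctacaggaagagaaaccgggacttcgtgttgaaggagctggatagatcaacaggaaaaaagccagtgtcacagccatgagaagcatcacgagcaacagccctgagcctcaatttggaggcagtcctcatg
Avil: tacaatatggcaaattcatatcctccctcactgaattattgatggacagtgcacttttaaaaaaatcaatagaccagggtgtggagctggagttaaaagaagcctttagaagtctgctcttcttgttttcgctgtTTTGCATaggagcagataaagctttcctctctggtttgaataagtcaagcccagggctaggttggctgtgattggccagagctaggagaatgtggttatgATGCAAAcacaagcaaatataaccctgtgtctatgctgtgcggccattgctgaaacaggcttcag
1810046K07Rik: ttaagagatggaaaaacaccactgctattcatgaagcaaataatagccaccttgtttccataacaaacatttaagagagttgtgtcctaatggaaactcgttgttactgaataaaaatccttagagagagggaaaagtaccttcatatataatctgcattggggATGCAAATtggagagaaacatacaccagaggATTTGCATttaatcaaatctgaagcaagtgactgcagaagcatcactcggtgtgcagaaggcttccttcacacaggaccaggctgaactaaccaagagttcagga
A match is a stretch of letters and was not tested as a binding site.

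Trpm5 (ENSMUSG00000009246.8, chr7:143069153-143094642, minus strand) encodes the cation channel that depolarises taste and tuft cells after calcium release. It ranged from 4.13 over a median of 8.76 to 13.5 CPM in APC Min/+ mice and from 9.21 over 11.5 to 12.5 CPM in WT mice. Although 5 of 6 APC Min/+ mice lay below the WT median, M18_2b had the highest level of all. A log2 fold change of -0.39 (standard error 0.23, edgeR unadjusted p = 0.115, FDR = 0.908) was fitted, and limma-voom gave a 95% interval of 0.515 to 1.02 times the WT level. Without M10_2 and M13_1 the fitted value was -0.27, and without M17_1 as well -0.32.

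Gnat3 (ENSMUSG00000028777.7, chr5:17962549-18019834, plus strand) encodes gustducin, the G protein alpha subunit coupled to taste receptors. Its lowest, median and highest levels were 1.005, 1.96 and 2.42 CPM in APC Min/+ mice and 1.79, 2.70 and 3.25 CPM in WT mice. All 6 APC Min/+ mice were below the WT median, yet the groups overlapped, since the WT mouse M17_2 had 1.79 CPM, less than 4 of the APC Min/+ mice. The fitted log2 fold change was -0.47 (standard error 0.21, edgeR unadjusted p = 0.0391, FDR = 0.908), and the exact permutation test over the 12 mice gave p = 0.0303 before and 0.893 after adjustment over all genes tested. Without M10_2 and M13_1 the value was -0.32 (edgeR unadjusted p = 0.105), and without M17_1 as well -0.25.

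Alox5 (ENSMUSG00000025701.6, chr6:116410077-116461178, minus strand), the 5-lipoxygenase that starts leukotriene synthesis, was nearly equal in most mice. WT mice had between 3.48 and 4.66 CPM with a median of 4.37, and APC Min/+ mice between 1.66 and 5.33 CPM with a median of 3.96. Only M13_1 fell outside the range of 3.48 to 5.33 CPM that held the other 11 mice. Its log2 fold change of -0.14 (standard error 0.22, edgeR unadjusted p = 0.522, FDR = 0.918) became 0.0107 without M13_1. Markers of macrophages and granulocytes, which also use Alox5, summed to 162 to 318 CPM in APC Min/+ and 184 to 332 CPM in WT mice, and their part in the Alox5 level was not tested.

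Il25 (ENSMUSG00000040770.5, chr14:54932695-54935837, plus strand), the cytokine by which tuft cells activate type 2 lymphocytes, was close to the limit of detection. In APC Min/+ mice it was counted 2 to 34 times, which is 0.0221, 0.0609 and 0.179 CPM in the lowest, median and highest mouse. In WT mice it was counted 0 to 18 times, or 0, 0.120 and 0.220 CPM, and 3 counts would be 0.0596 CPM at the depth of M17_2, the mouse without a count. All 11 nonzero counts were even, so the number of independent fragments may be lower. Its log2 fold change of -0.43 had a standard error of 0.59 (edgeR unadjusted p = 0.475, FDR = 0.913), and the limma-voom interval ran from 0.280 to 2.14 times WT, so that a difference within these bounds was not detectable at this depth.

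Il17rb (ENSMUSG00000015966.10, chr14:29996135-30008896, minus strand) encodes the receptor subunit for IL-25 and is itself carried by tuft cells. It was at 1.85, 3.26 and 3.90 CPM in the lowest, median and highest APC Min/+ mouse and at 2.35, 4.04 and 5.08 CPM in the WT mice. It was the member for which M13_1, at 3.90 CPM, was the highest rather than the lowest APC Min/+ mouse. All 6 APC Min/+ mice lay below the WT median, and edgeR gave a log2 fold change of -0.32 (standard error 0.23, edgeR unadjusted p = 0.185, FDR = 0.908). Without M10_2 and M13_1 it was -0.47 (edgeR unadjusted p = 0.0869). T cell and innate lymphoid markers summed to 23.4 to 36.4 CPM in APC Min/+ and 24.8 to 32.6 CPM in WT mice, and their part in the Il17rb level was not tested.

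Dclk1 (ENSMUSG00000027797.9, chr3:55242364-55539068, plus strand), a microtubule-associated kinase and the most widely used tuft cell marker, had the smallest fitted difference of the 9 over all 12 mice. Its levels were 23.0, 32.2 and 38.8 CPM in APC Min/+ mice and 26.8, 35.3 and 37.1 CPM in WT mice (lowest, median, highest), with the highest mouse, M20_1, and the lowest, M13_1, both APC Min/+. In edgeR the log2 fold change was -0.07 (standard error 0.13, edgeR unadjusted p = 0.59, FDR = 0.925), with a limma-voom 95% interval of 0.778 to 1.15 times WT. It changed sign without M10_2 and M13_1, at 0.0497. Neuronal markers, 8 genes such as Elavl4 and Uchl1, summed to 72.9 to 110 CPM in APC Min/+ and 41.2 to 109 CPM in WT mice, none of them under 0.1 CPM in all mice, and their part in the levels of Dclk1 and Avil was not tested.

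Avil (ENSMUSG00000025432.5, chr10:127000709-127020994, plus strand) encodes advillin, an actin-bundling protein of the tuft cell's apical brush. APC Min/+ mice had 4.91, 6.76 and 8.27 CPM and WT mice 5.71, 7.55 and 8.83 CPM (lowest, median, highest). M17_1 was the highest and M13_1 the lowest mouse, with the remaining mice of both genotypes intermixed. The fitted log2 difference was -0.16 (standard error 0.14, edgeR unadjusted p = 0.26, FDR = 0.910), and -0.03 without M10_2, M13_1 and M17_1.

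Sh2d6 (ENSMUSG00000052631.8, chr6:72513641-72521707, minus strand), an SH2 domain adaptor protein, had the largest fitted difference of the 9 members over all 12 mice, an order that did not hold without M10_2 and M13_1, where Il25 (-0.57) and Il17rb (-0.47) exceeded it. It was at 2.496, 5.79 and 7.84 CPM in the lowest, median and highest APC Min/+ mouse and at 5.37, 7.995 and 13.7 CPM in the WT mice. The extremes were again M13_1 and M17_1, and all 6 APC Min/+ mice were below the WT median, although the WT mouse M18_b, at 5.37 CPM, lay below 3 of them. Its log2 fold change was -0.63 (standard error 0.26, edgeR unadjusted p = 0.0295, FDR = 0.908), and the exact permutation p was 0.0303 before and 0.893 after adjustment over all genes tested. It was -0.48 without M13_1, -0.44 without M17_1, -0.41 without M10_2 and M13_1 (edgeR unadjusted p = 0.0895), and -0.23 without all 3 mice.

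**Figure D2:**
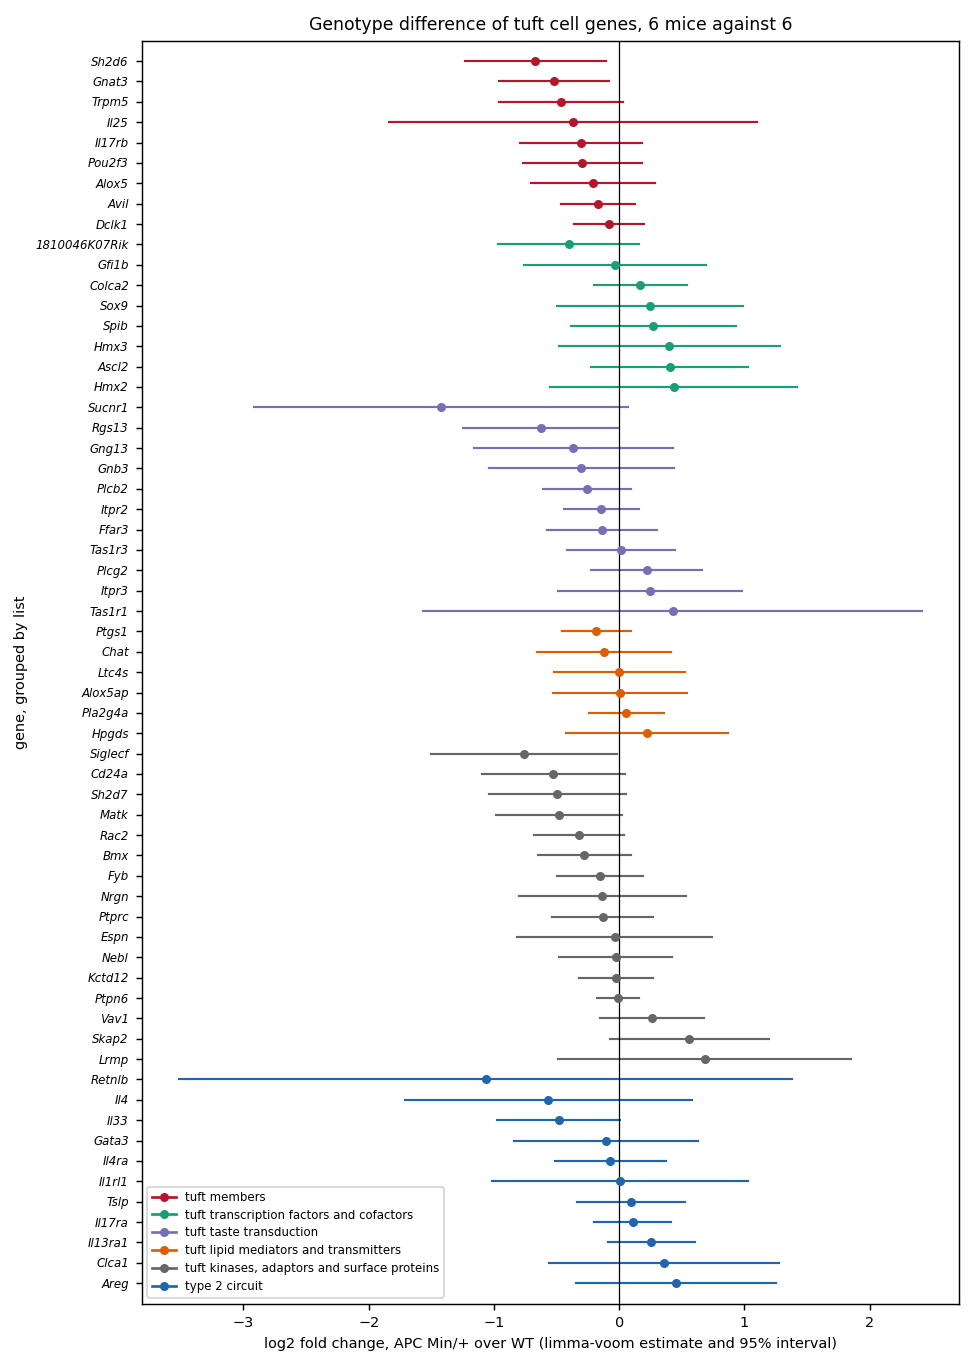
Log2 fold change of APC Min/+ over WT for tested genes of the tuft cell and type 2 lists, with the limma-voom 95% interval, colours giving the list. All 9 members (red, top) lie left of 0, while the other lists spread over both sides. Before adjustment, the intervals of the members Sh2d6 and Gnat3 do not reach 0, and neither do those of Rgs13 and Siglecf from the other lists.

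Compared per length, as RPKM over all 12 mice, Sh2d6 was the highest member at 4.05 ± 1.56 (SD, n = 12), followed by Dclk1 at 2.54 ± 0.360, Avil at 2.07 ± 0.326 and Gnat3 at 1.74 ± 0.464. Trpm5 at 1.53 ± 0.432, Il17rb at 1.29 ± 0.361 and Alox5 at 0.990 ± 0.222 came next, and Pou2f3 at 0.634 ± 0.161 and Il25 at 0.0982 ± 0.0641 were lowest. Within mice, the log2 ratio of neighbours exceeded its SD for Sh2d6 over Dclk1 and for Dclk1 over Avil, each in 11 of 12 mice, and for Alox5 over Pou2f3 and Pou2f3 over Il25, each in all 12. For the neighbouring pairs Avil and Gnat3, Gnat3 and Trpm5, Trpm5 and Il17rb, and Il17rb and Alox5 the ratio was not beyond its SD. The coefficient of variation over mice in CPM was lowest for Dclk1 at 14.2% and Avil at 15.7%, and highest for Sh2d6 at 38.6% and Il25 at 65.3%.

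**Figure D3:**
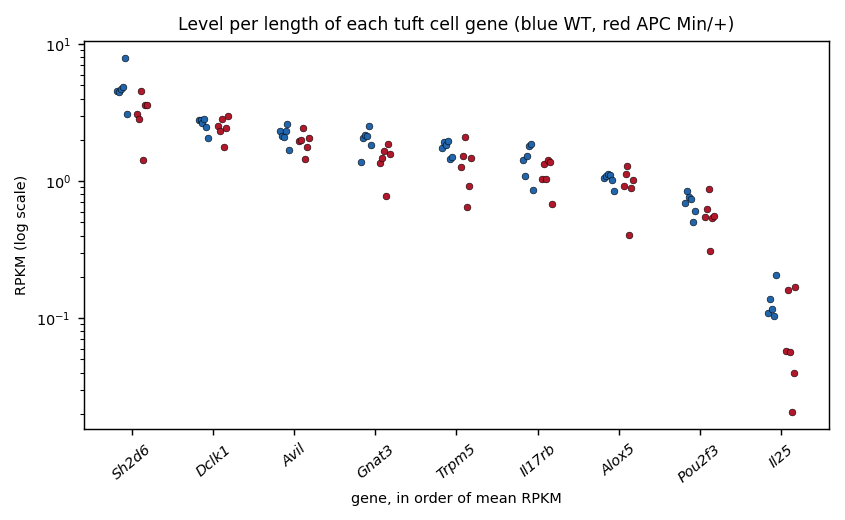
RPKM of the 9 tuft cell genes in each mouse on a log axis, ordered by mean, WT in blue and APC Min/+ in red. Sh2d6 is highest at a mean of 4.05 and Il25 lowest at 0.0982, and the WT mouse M17_2, in which Il25 was not counted, has no point for that gene.

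Across all 12 mice, 7 of the 9 tuft cell genes moved together and Il25 and Il17rb did not follow them. For Il17rb this depended in part on the mice included. Without M10_2 and M13_1, Il17rb had r = 0.71 with Sh2d6 (rho = 0.84), 0.55 with Gnat3 and 0.49 with Avil. It stayed at 0.23 with Alox5, 0.08 with Trpm5, 0.05 with Pou2f3 and 0.01 with Dclk1. Over the 12 mice, the 36 pairs of members had a median Pearson r of 0.63 on log2(CPM + 0.1), with 13 pairs above 0.7, 5 below 0 and a range from -0.32 to 0.92. These points share libraries and their scaling, and M13_1 was low for most members. Without M10_2 and M13_1 the median r was 0.27, with 7 pairs above 0.7. Leaving out M13_1 alone gave 0.31 and leaving out M17_1 gave 0.74. Centring within genotype, with M13_1 included, gave 0.53.

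Trpm5 and Pou2f3 formed the closest pair, with r = 0.92 (permutation p = 4e-05) and Spearman's rho = 0.96 (permutation p = 1e-05, the smallest that 100000 permutations can give). The r was 0.93 without M13_1 and M2_A, the 2 mice farthest from the Trpm5 median, and 0.83 in the 10 mice without M10_2 and M13_1. In those 10 mice the permutation p was 0.0019 for r and 0.00035 for rho. No permutation p of a pair was adjusted for the 36 pairs examined. Alox5 belonged with this pair, with r = 0.89 to Trpm5 (rho = 0.85) and 0.88 to Pou2f3, and 0.81 and 0.77 in the 10 mice. Sh2d6 followed Avil (r = 0.90, rho = 0.83, permutation p = 8e-05 and 0.0014, and r = 0.80 without the 2 mice farthest from the Avil median) and kept r = 0.84 in the 10 mice. Gnat3 and Sh2d6 had r = 0.88 (rho = 0.78), which was 0.68 in the 10 mice and 0.54 without M13_1 and M17_1. Alox5 was also tied to Avil (r = 0.82, and 0.75 in the 10 mice) and to Dclk1 (0.83 and 0.74). It thus linked the pair of Trpm5 and Pou2f3 with that of Avil and Sh2d6. Sh2d6 itself had r = 0.34 with Trpm5 and 0.24 with Dclk1 in the 10 mice, and 0.71 and 0.66 without M17_1 as well. Whether these genes split into groups was not tested. Pairs without Alox5 also exceeded 0.7 in all 12 mice, such as Dclk1 with Avil (0.80) and with Trpm5 (0.77). Those 2 pairs had 0.61 and 0.50 in the 10 mice. The pair of Pou2f3 and Sh2d6 depended most on the mice included, with r = 0.60 in all 12, 0.08 in the 10 and 0.81 when M17_1 was left out as well.

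**Figure D4:**
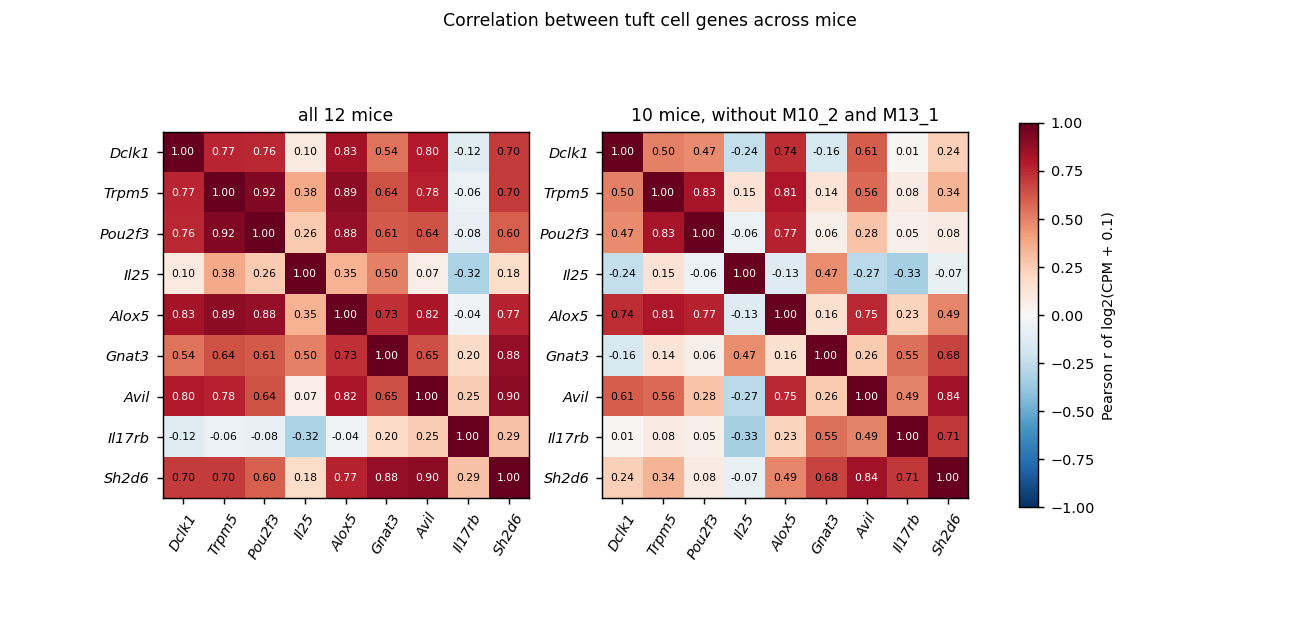
Pearson r of log2(CPM + 0.1) for each pair of tuft cell genes, over all 12 mice (left) and over the 10 mice without M10_2 and M13_1 (right). On both sides 6 pairs stay above 0.7, the 3 among Trpm5, Pou2f3 and Alox5, Alox5 with Dclk1 and with Avil, and Avil with Sh2d6. Most pairs with Gnat3 fall. The Il25 row is highest with Gnat3, at 0.50 and 0.47, and lower elsewhere.

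Each member was also set against the mean z-score of the other 8 and ranked by r among 20303 genes. Alox5 ranked 3 (r = 0.91), Sh2d6 ranked 6, Trpm5 13, Avil 14, Gnat3 36, Pou2f3 96 and Dclk1 164. Il25 ranked 5779 (r = 0.24) and Il17rb 9555 (r = 0.02). In the 10 mice the ranks were 88 for Alox5, 190 for Avil, 363 for Sh2d6 and 563 for Trpm5. Pou2f3 then ranked 2663 (r = 0.49), Gnat3 2705 (0.42), Dclk1 3139 (0.43), Il17rb 3438 (0.35) and Il25 11790 (-0.09). In those mice Il17rb was thus not set apart from Pou2f3, Gnat3 and Dclk1. The low rank of Il25 was measured at a few counts per mouse. The 7 members other than Il25 and Il17rb were lowest in M13_1, and the mean z-score over all 9 was -1.97 in that mouse and between -0.39 and 0.75 in the other 11. In the other library with high posterior Hox genes, M10_2, it was 0.03.

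Of all genes outside the 9, Sh2d7, which encodes an adaptor of the same SH2 family as Sh2d6, was most like their mean in all 12 mice (r = 0.97) and again in the 10 mice (r = 0.91). An r above 0.7 was found for 1.65% of 20302 genes in the 12 mice and for 2.18% in the 10 mice. Among the 10 most similar genes were also Matk (r = 0.91), Neb, Itprid1, Acnat1, Siglecf, Clnk, Cpne8 and Tpsg1 (r = 0.86), of which Matk and Siglecf, like Sh2d7, were in the tuft cell lists used here. Matk encodes a tyrosine kinase, Siglecf a sialic acid-binding surface receptor and Clnk an adaptor related to signalling in haematopoietic cells. In the 10 mice the lowest r among them were 0.49 for Cpne8 and 0.648 for Matk. Sh2d7 was at 2.03 CPM in M13_1 and at 4.76 to 8.53 CPM in the others, and its log2 fold change between genotypes was -0.39 (edgeR unadjusted p = 0.14, FDR = 0.908).

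**Figure D5:**
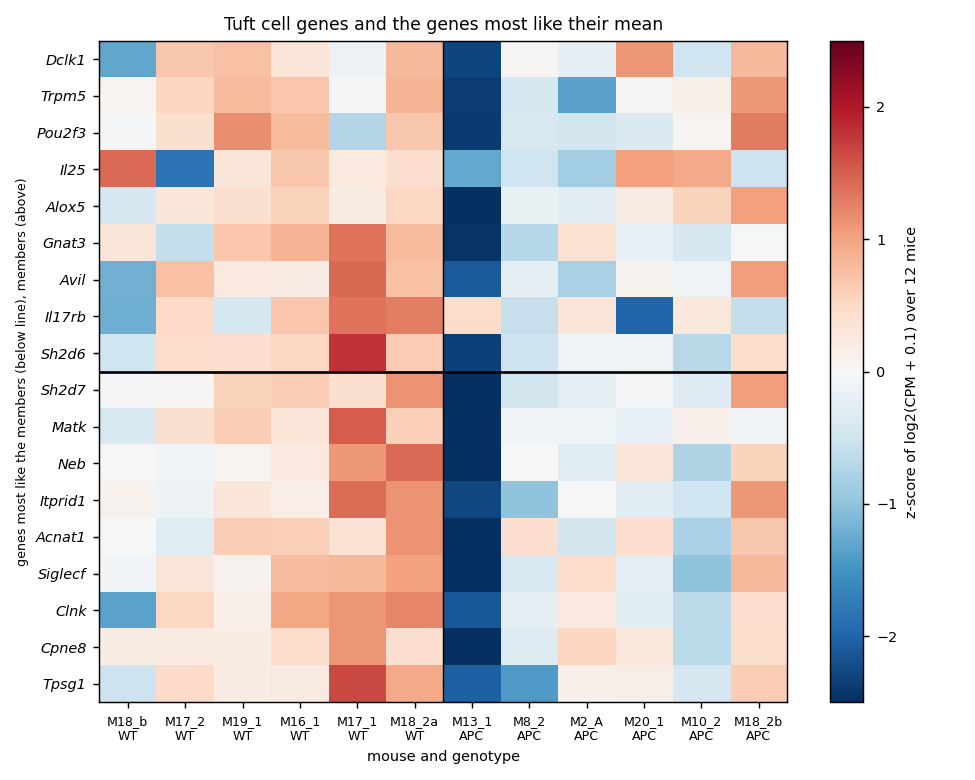
Z-scores of log2(CPM + 0.1) over the 12 mice for the 9 members (above the line) and 9 of the 10 genes most like their mean (below it), mice ordered within genotype by the mean z-score of the members, colours limited to 2.5 in either direction. M13_1 is low for 7 members and for the 9 genes below the line, while Il17rb is not low in that mouse and Il25 is lowest in M17_2.

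Wider lists of tuft cell genes followed the 9 members only in part. Of 8 transcription factors and cofactors, 7 had a higher and 1 a lower fitted level in APC Min/+ mice, with a median log2 fold change of 0.34 and none at an unadjusted edgeR p under 0.05. The exception was 1810046K07Rik, the coactivator whose promoter window is shown above, at 0.684 ± 0.270 CPM in APC Min/+ and 0.864 ± 0.173 CPM in WT mice (SD, n = 6). The gene of this list with the highest RPKM was Sox9, a factor of crypt progenitors as well as tuft cells, at 33.2 ± 14.4 CPM against 26.2 ± 7.79 CPM. Gfi1b and 1810046K07Rik were the 2 of 8 with an r above 0.7 to the members' mean, and neither was above 0.7 in the 10 mice.

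Of 13 taste transduction genes 11 passed the filter, 3 were higher and 8 lower, and none had an unadjusted edgeR p under 0.05. Itpr3, the calcium release channel with the highest RPKM of the list, was at 149 ± 55.5 CPM in APC Min/+ and 121 ± 41.4 CPM in WT mice and is not particular to tuft cells. Rgs13, a regulator of G protein signalling, was the 1 of 11 with an r above 0.7 to the members (0.80), and had 0.57 in the 10 mice. Sucnr1, the receptor for the tuft cell ligand succinate and chosen here after its values were seen, was at 0.0707 CPM in M10_2, at 0.0883 CPM in M13_1, and between 0.636 and 1.81 CPM in the other 10 mice. It was thus low in both libraries with high posterior Hox genes, whereas of these 2 only M13_1 was low for Trpm5 and Pou2f3. Trpm5 was also low in M2_A, at 5.87 CPM.

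Among 6 genes for lipid mediators and transmitters, 4 were higher and 2 lower, and the largest by RPKM, the phospholipase gene Pla2g4a, was at 64.5 ± 8.73 CPM in APC Min/+ and 62.6 ± 13.4 CPM in WT mice. Of 17 kinases, adaptors and surface proteins, 4 were higher and 13 lower, with a median log2 fold change of -0.12. The 2 with an unadjusted edgeR p under 0.05 were both higher, Lrmp with a log2 fold change of 1.23 (edgeR unadjusted p = 0.0363, FDR = 0.908) and the adaptor gene Skap2 with 0.72 (edgeR unadjusted p = 0.0295, FDR = 0.908). Both values rested on the same 2 mice, since Lrmp was at 33.3 and 39.1 CPM in M10_2 and M13_1 and at 4.70 to 8.08 CPM elsewhere, and Skap2 at 63.5 and 64.9 CPM against 19.4 to 29.8 CPM. Without them the log2 fold change was -0.22 for Lrmp and 0.09 for Skap2. Cd24a, a surface protein widespread in epithelium and the highest of this list by RPKM, was at 445 ± 155 CPM in APC Min/+ and 654 ± 267 CPM in WT mice (edgeR unadjusted p = 0.0634, FDR = 0.908), and its log2 fold change of -0.55 was -0.35 without M10_2 and M13_1.

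The type 2 cytokines downstream of tuft cells were close to the limit of detection. Il13 did not exceed 0.0221 CPM and Il5 did not exceed 0.0834 CPM in any mouse, and both stayed below the filter, so no change in them was detectable at this depth. Il4 reached at most 0.149 CPM. Il33, an alarmin of stromal and epithelial cells, was at 12.9 ± 4.69 CPM in APC Min/+ and 16.6 ± 2.59 CPM in WT mice. Its log2 fold change of -0.36 was -0.11 without M10_2 and M13_1, the 2 lowest mice at 6.78 and 9.20 CPM. Of the 11 genes tested, 6 were higher and 5 lower, none had an unadjusted edgeR p under 0.05, and none had an r above 0.7 to the tuft cell genes. Clca1, a goblet cell product that IL-13 induces and the highest of the list, was at 3344 ± 3066 CPM against 2007 ± 564 CPM, a higher mean that came from M10_2 at 8931 CPM and M13_1 at 4975 CPM. The other 4 APC Min/+ mice were at 1272 to 1742 CPM, and the fitted log2 fold change of 0.74 became -0.38 without those libraries (edgeR unadjusted p = 0.0862).

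Markers of other cells moved with the tuft cell genes across these mice, and their part in the results was not tested. Of 6 enteroendocrine genes, 5 had an r above 0.7 to the members' mean (median 0.76), and in the 10 mice 3 of 6 did (median 0.71). Their summed level was 224 CPM in M13_1, 296 CPM in M10_2 and 371 to 602 CPM in the other 10 mice, and 5 of 6 were lower in APC Min/+ mice with none at an unadjusted edgeR p under 0.05. For Tph1, the serotonin-forming enzyme, the means were 24.8 ± 12.97 CPM in APC Min/+ and 40.3 ± 10.4 CPM in WT mice (edgeR unadjusted p = 0.0555, FDR = 0.908), and the log2 fold change of -0.70 was -0.34 without M10_2 and M13_1. All 5 smooth muscle genes had an r below 0 to the members' mean (median r = -0.60, and -0.55 in the 10 mice). For Myh11 it was only -0.01 and for Acta2 -0.24, and in the 10 mice -0.36 and -0.49. Between genotypes 4 of 5 were higher in APC Min/+ mice, with a median log2 fold change of 0.41. At an unadjusted edgeR p under 0.05 were 3 of 5, against 5.27% of all genes tested, and the lowest FDR was 0.908. Without M10_2 and M13_1 all 5 were higher and 2 were at such a p, against 317 of 19978 genes. Without M17_1 as well, 4 of 5 were higher and 1 was at such a p, against 246 of 19795 genes, and the median was 0.27. They summed to 3773 to 5721 CPM in APC Min/+ and 3959 to 5061 CPM in WT mice. General epithelial markers such as Krt8 and Epcam summed to 10097 to 12962 CPM in APC Min/+ and 9352 to 15301 CPM in WT mice. When CPM was divided by that sum, the median r of the 36 pairs of tuft cell genes was 0.70.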

How the data were processed

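Proximal colon RNA of 12 mice was sequenced as read pairs. Per the labels the authors used STAR 2.3.0, GRCm38.p2 and featureCounts, and they deposited raw counts with gene lengths for each mouse. The annotation release and strand setting are not given in the sources used here. The length column (other units) served for RPKM. Symbols came from GENCODE M21 for 37607 of 38924 genes. Genotypes were compared, 6 mice against 6, with edgeR 4.0.16 (quasi-likelihood test, TMM, at least 10 counts in at least 3 mice, and a call at a Benjamini-Hochberg FDR under 0.05 with at least 2-fold). DESeq2 1.42.0 and limma 3.58.1 (voom) were alternatives. A standard error is the log2 fold change over the square root of F. Two-sided exact permutation tests used all 924 assignments of log2(CPM + 0.1), with a smallest p of 0.0022, and correlation p-values used 100000 permutations. Scripts were tested on simulated data. P-values measure the spread between these mice. No libraries were duplicates, as the closest pair, M18_2b and M19_1, differed by 4.58 times the sampling noise.

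Members and lists were chosen with earlier results of these data known. The genes named were the 9 members, the genes of the wider tuft cell and type 2 lists with an unadjusted p under 0.05 or the highest RPKM of their list, and the 10 genes most like the members. Gfi1b, Spib, Ascl2, 1810046K07Rik, Rgs13, Sucnr1, Il4, Il5, Il13, Il33 and Tph1 were named after their values were seen. A gene among the last 10 is not reported here. Gene identity was by symbol, with Gm684 matched as Colca2. Slc18a3 was not used here. Without strand in the sources, reads of overlapping antisense genes cannot be told apart. The limit given by 3 counts covers counting error only.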

Additional observations from a re-analysis of the deposited data

Results flagged for a closer look

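The mean z-score of the 9 tuft cell genes in M13_1 was -1.97, and its gap to the next APC Min/+ mouse was 0.637 of the whole range of the 6 APC Min/+ mice, above Dixon's 95% critical value for 6 values. Chance alone marks about 1 in 20 such groups, and 20 groups were checked. M13_1 was the lowest mouse for 7 of the 9 genes, with a summed level of 42.0 CPM against 57.5 to 80.3 CPM in the other 11 mice. It was also 1 of the 2 libraries with high posterior Hox genes and had the highest sum of B cell markers. The other such library, M10_2, had a summed tuft cell level of 63.9 CPM. The part of these features in the low level was not tested.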

How the results depend on the processing

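The number of genes past the threshold was 0 in edgeR's quasi-likelihood test under each filter and scaling tried and 0 without any 1 mouse (range 0 to 0), but 27 with DESeq2 (20 higher, 7 lower) and 15 with the likelihood ratio test (10 higher, 5 lower), and no member was among them. The cause was not tested. The log2 fold change of Dclk1 turned from -0.07 to 0.0497 without M10_2 and M13_1, to 0.0338 without M17_1 as well (an alternative chosen after seeing the data) and to 0.0104 without M13_1, where Alox5 also turned to 0.0107. The differences in mean log2 CPM of Dclk1 were then 0.0538, 0.0394 and 0.0127, and that of Alox5 was 0.0029. Lrmp turned to -0.22 without M10_2 and M13_1 and to -0.17 without all 3 mice. The median r of the 36 pairs moved from 0.63 to 0.27 without M10_2 and M13_1, and was 0.44 without all 3 mice and 0.58 with a pseudocount of 1 CPM. Of the named pairs, Gnat3 and Sh2d6 moved to 0.68 and 0.46, and Trpm5 and Il17rb, at -0.06, to -0.31 when centred within genotype, 0.27 per epithelial marker and 0.16 without the 3 mice. The epithelial divisor is shared by both genes of a pair and can itself raise r.

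Leaving out each mouse in turn, the log2 fold change lay between -0.12 and 0.0104 for Dclk1, -0.57 and -0.25 for Trpm5, -0.42 and -0.13 for Pou2f3, -0.78 and -0.18 for Il25, -0.26 and 0.0107 for Alox5, -0.56 and -0.35 for Gnat3, -0.24 and -0.09 for Avil, -0.41 and -0.19 for Il17rb and -0.76 and -0.44 for Sh2d6, and the median r between 0.31 and 0.74. The difference in mean log2 CPM lay between -0.15 and 0.0127 for Dclk1 and between -0.32 and 0.0029 for Alox5. The number of genes at an unadjusted p under 0.05 lay between 523 (without M10_2) and 1828 (without M2_A). The number of members at an unadjusted edgeR p under 0.05 was 3 without M18_2b and 0 without M10_2 or without M17_1. A filter of 1 CPM in 6 mice removed Il25. Halving the counts, chosen after seeing that low counts are mostly even, left the 9 log2 fold changes within 0.01 of their values. Halving acts on all libraries alike and could hardly move a fold change. It cannot show whether counts stand for independent molecules. No paired analysis was possible because the labels' numbers name mice and pair none. Depth limits Il25 most, at 34 counts or fewer per mouse. Of all values recomputed, 588 stayed on the same side of the threshold or within their spread, 8 moved and 10 reversed. Among the 588, the r of Trpm5 and Il17rb, close to 0, changed sign 3 times.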
